A study of Brassica carinata with 12 samples.

Results

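In anthers of synthetic Brassica carinata, 30 of the 97149 genes in the count table were well expressed at meiosis in a haploid and a tetraploid form, nearly silent in tetraploid anthers at mitosis, and still measurable in haploid anthers at mitosis. They were chosen on measured values: genes assigned by their ID to a B or C chromosome other than C03, with at least 5 CPM (reads of the gene per 1000000 counted reads of the library) in each of the 6 meiosis libraries, 0.5 CPM or less in each of the 3 tetraploid mitosis libraries, and above 1 CPM in each of the 3 haploid mitosis libraries. At these totals 0.5 CPM stands for about 8 reads in a tetraploid mitosis library and 1 CPM for about 16 to 17 reads in a haploid mitosis library. Because the levels at mitosis and the change between the stages chose the genes, they are given below as a description, with no test.

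In the anther, pollen mother cells pass through meiosis and give microspores, and each microspore later divides by mitosis to form the vegetative and the generative cell of the pollen grain. The tapetum, the innermost layer of the anther wall, feeds these cells and is broken down as the pollen matures. Many transcripts of meiotic cells and of the young tapetum are known to disappear from anthers once the microspores have been released. In a plant that carries a single set each of the B and C chromosomes, the chromosomes have no full homologues to pair with at meiosis.

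The study set synthetic haploid B. carinata against its tetraploid form. The haploid (BC) came from B. oleracea var. alboglabra as the mother and B. nigra as the father, and the tetraploid (BBCC) came from that cross with ovule culture and colchicine, which doubles chromosomes. The 4 groups, with 3 RNA-seq libraries each, were haploid anthers at mitosis (gametogenesis), tetraploid anthers at mitosis, haploid anthers at meiosis (sporogenesis) and tetraploid anthers at meiosis. The labels give anther as the tissue, while the protocol speaks of floral buds. They do not say how the stages were recognised, how many plants were pooled, or whether each library is a separate plant, and so each p-value speaks of these libraries alone, whose spread may be technical. Total counts were between 15769687 and 16793767 per library, and no pair of libraries of a group agreed within sampling noise (mean chi-square per gene 2.52 to 3.08). The files pair no gene ID with a name, so the function of these genes is not given here, and the labelled tissue and stages could not be checked against marker genes. In whole anthers, fewer cells of a type and less RNA per cell cannot be told apart.

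The way to the 30 genes shows how narrow the group is. Of 84112 placed genes outside C03, 21026 reached 5 CPM in all 6 meiosis libraries. In tetraploid anthers at mitosis, 459 of these stood at 0.5 CPM or less in every library. Of these 459, 285 were at or under 0.5 CPM in every haploid mitosis library too, 144 lay between, and 30 (6.54%) were above 1 CPM in every haploid mitosis library. With the forms exchanged, 330 of the 21026 genes were at or under 0.5 CPM in every haploid mitosis library, and 3 of them (0.909%) were above 1 CPM in every tetraploid mitosis library. These 3, named because they are so few and after their values were seen, were BcaC01g04180, BcaC07g40538 and BcaC07g40627, with means of 1.38, 1.44 and 1.86 CPM at tetraploid mitosis. With replicate 2 left out of all groups the rule took 46 genes, and with the forms exchanged it took 7, 7 and 12 genes without replicate 1, 2 and 3.

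**Figure D1:**
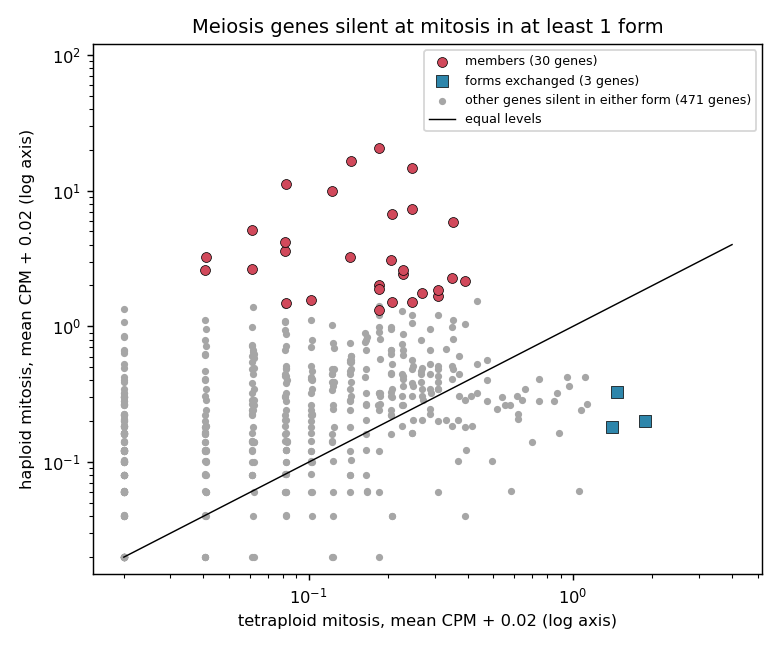
Each point is a gene with at least 5 CPM in all 6 meiosis libraries that was at or under 0.5 CPM in all 3 mitosis libraries of at least 1 form; the vertical axis is its mean CPM at haploid mitosis and the horizontal axis its mean CPM at tetraploid mitosis, both plus 0.02 on log axes. The 30 genes lie above the line of equal levels, where the rule puts them, the 3 genes of the exchanged rule lie below it, and 471 other genes lie near the low corner.

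For genes chosen on fewer libraries, the left-out libraries gave a check that the choice did not fix. For the 30 genes themselves the outcome was fixed, since all 30 were among the genes chosen each time. The check covers agreement between libraries only, as separate plants are not stated. When the rule was applied to 2 replicate numbers only, the left-out number served as a measurement that this choice had not used. Of 42 genes chosen without replicate 1, 42 had more CPM in the left-out haploid mitosis library than in the left-out tetraploid one, where 49.2% of the 21026 meiosis genes did. Without replicate 2 it was 45 of 46 (49.7% of the meiosis genes), and without replicate 3 it was 41 of 42 (49.0%). The left-out haploid mitosis library was above 1 CPM for 35 of 42, 38 of 46 and 35 of 42 of these genes. Their medians were 2.21, 2.34 and 2.29 CPM in the left-out haploid libraries, against 0.123, 0.189 and 0.215 CPM in the left-out tetraploid libraries. Each count and median of this check includes the 30 genes, which pass by the rule. The shares above 1 CPM are thus higher than among the other chosen genes alone.

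At mitosis the 30 genes were low in absolute terms in the haploid as well. Their means ranged from 1.30 to 20.7 CPM in haploid anthers, with a median of 2.62 CPM, and from 0.0205 to 0.372 CPM in tetraploid anthers, with a median of 0.165 CPM. The median over the 21026 meiosis genes was 14.7 CPM in haploid and 14.8 CPM in tetraploid anthers at mitosis. By mean haploid level, 10 of the 30 genes were under 2 CPM, 11 were between 2 and 5 CPM, and 9 were at 5 CPM or more. The ratio of haploid to tetraploid CPM at mitosis ranged from 5.70 to 179.9 with a median of 21.1. No gene was at 0 in all 3 tetraploid mitosis libraries, but 14 were at 0 in at least 1 of them, and 8 rested on 1 to 3 reads over all 3, so that many single ratios are imprecise.

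Summed over the 30 genes, the level was 146 ± 4.04 CPM in haploid anthers at mitosis and 4.97 ± 1.31 CPM in tetraploid anthers at mitosis (SD, n = 3 each). At meiosis the sum was 4953 ± 64.5 CPM in haploid and 3197 ± 17.3 CPM in tetraploid anthers (SD, n = 3 each). The mitosis sum was thus 2.95% of the meiosis sum in the haploid, and 0.155% in the tetraploid. The sums were 147.9, 141.4 and 148.7 CPM in haploid mitosis replicates 1, 2 and 3. The rule asked each gene for more than 1 CPM in every one of these libraries. The median gene stood at 1.05, 0.942 and 0.970 times its own haploid mitosis mean in these libraries. Across the 30 genes the highest haploid mitosis library was 1.10 to 2.88 times the lowest, with a median of 1.34.

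**Figure D2:**
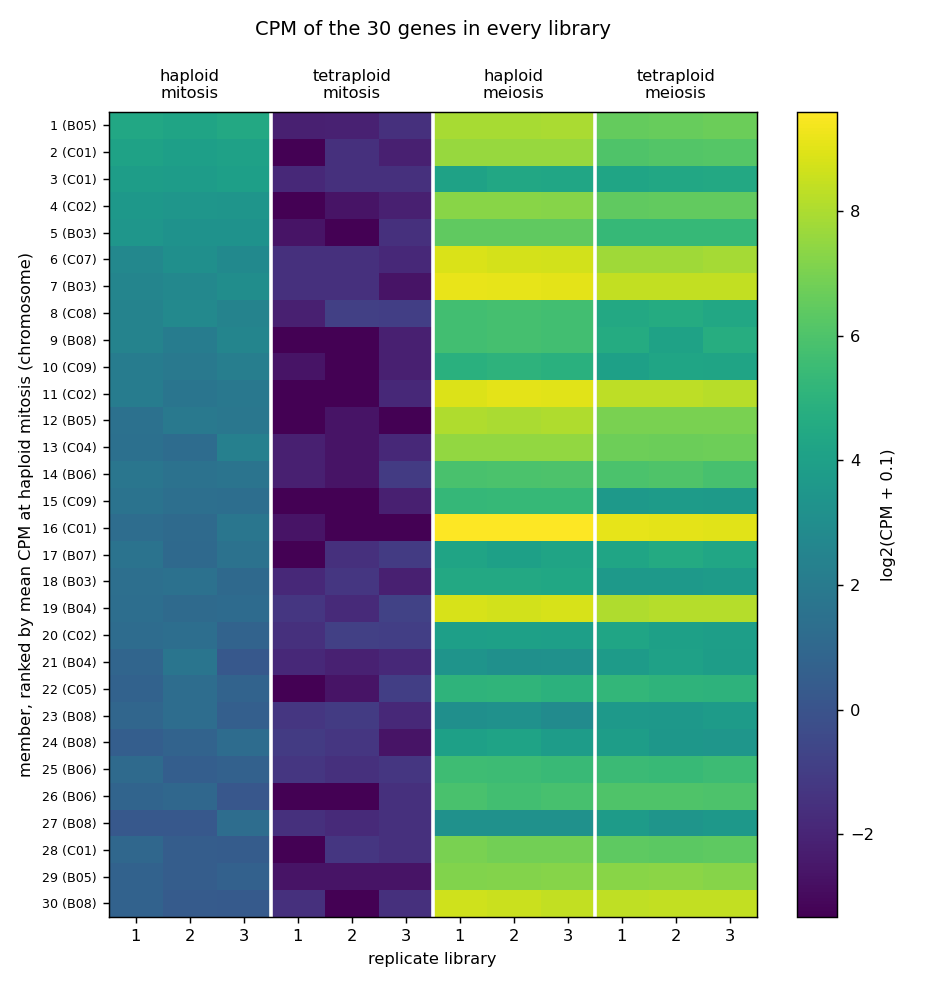
Colour gives log2(CPM + 0.1) of each of the 30 genes (rows, ranked by mean CPM at haploid mitosis, with the chromosome in brackets) in each of the 12 libraries (columns, by group and replicate). The haploid mitosis columns are intermediate for every gene, the tetraploid mitosis columns are at or under 0.5 CPM, and the meiosis columns are highest. At meiosis all haploid libraries were above all tetraploid ones for 17 genes (25.5% of the 21026 meiosis genes). They were all below for 6 genes (35.6% of the meiosis genes).

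The gene with the most reads at haploid mitosis was BcaB05g23953 on B05. It stood at 21.5, 18.7 and 21.8 CPM in the haploid mitosis libraries, against 0.123, 0.126 and 0.246 CPM in the tetraploid mitosis libraries. At meiosis it had 236, 243 and 248 CPM in haploid libraries, against 93.2, 96.6 and 102.9 CPM in tetraploid libraries. The haploid libraries were above the tetraploid ones at both stages, and the mitosis ratio of 125 had an exact 95% counting interval of 63.4 to 291, since the tetraploid value rests on 8 reads. Counting intervals pool the reads of a group's libraries and leave out the spread between libraries. They may be too narrow also because the reads carry no molecular identifiers and may copy the same molecule. The levels they compare chose the genes, so the intervals are not a test.

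BcaC01g06148 on C01 was next, at 17.4, 15.3 and 16.7 CPM in haploid anthers at mitosis and 0, 0.251 and 0.123 CPM in tetraploid anthers at mitosis. The ratio was 133 (counting interval 60.9 to 364). Both genes kept a like part of their haploid meiosis level, 8.53% for BcaB05g23953 and 8.47% for BcaC01g06148. BcaC02g08516 on C02, named after its values were seen as another of the 4 genes at 10 CPM or more, averaged 11.1 ± 0.725 CPM in haploid and 0.0619 ± 0.0614 CPM in tetraploid anthers at mitosis (SD, n = 3 each). Its tetraploid value rests on 3 reads, and its ratio of 179.9 (counting interval 61.2 to 875) was the highest of the 30. BcaC01g04921, described below, was the remaining gene of these 4. Together the 4 genes held 43.1% of the summed CPM of the 30 genes at haploid mitosis.

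In levels, these genes of the meiosis stage stood lower in haploid anthers at mitosis, at 25% or less of their meiosis level in all but 1 gene. All 30 genes had every haploid mitosis library below every haploid meiosis library, as the limits of the rule favour, and 57.9% of the 21026 meiosis genes did the same. The part of the haploid meiosis level still present at haploid mitosis had a median of 6.92%, with quartiles of 1.35% and 11.4%, and ranged from 0.340% to 75.1%. In the tetraploid the mitosis level was 0.00382% to 2.33% of the meiosis level, with a median of 0.239%. Over all 459 genes that were silent at tetraploid mitosis, a set that was chosen without the haploid mitosis libraries, the haploid kept a median of 0.916% (quartiles 0.387% and 2.89%).

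The 30 genes differed widely in how much they kept. The part kept was under 2% for 10 genes, from 2% to 10% for 9 genes and 10% or more for 11 genes. Of the 13 genes with at least 100 CPM at haploid meiosis, 10 kept under 2%. All 7 genes with under 20 CPM at haploid meiosis kept at least 10%. The minimum of 1 CPM at haploid mitosis fixes this for the 3 of them under 10 CPM at haploid meiosis, and the other 4 kept 10.8% to 75.1%. Across the 30 genes the mean CPM at haploid mitosis and at haploid meiosis had a Spearman's rho of 0.322, a description within the limits set by the rule and of values not scaled to gene length.

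BcaC01g04921 on C01 kept the most and stood apart from the other 29. It had 14.4, 14.1 and 15.5 CPM in the haploid mitosis libraries, close to the 17.4, 21.6 and 19.6 CPM in the haploid meiosis libraries. In the tetraploid it had 0.184, 0.251 and 0.246 CPM at mitosis and 19.3, 21.6 and 21.9 CPM at meiosis. The haploid thus kept 75.1% of its meiosis level and the tetraploid 1.09%, and no other of the 30 genes kept more than 25% in the haploid. Per length it was also the highest of the 30 at haploid mitosis, at 26.5 ± 1.59 FPKM (a level scaled by gene length and depth, SD, n = 3). The next highest part kept was 21.9%, for BcaB08g34833 on B08, at 1.82, 2.31 and 1.39 CPM in haploid mitosis libraries and 8.496, 9.18 and 7.46 CPM in haploid meiosis libraries.

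At the other end, BcaC01g00670 on C01 kept 0.340% and was the most abundant of the 30 genes per length. It had 1761 ± 16.3 FPKM in haploid and 1217 ± 30.3 FPKM in tetraploid anthers at meiosis (SD, n = 3 each). At mitosis it had 2.36, 2.12 and 3.31 CPM in the haploid libraries, and in the tetraploid a single read in replicate 1 and 0 reads in replicates 2 and 3. The ratio at mitosis was 126, with a counting interval of 22.3 to 5026. BcaB08g35681 on B08 kept 0.347%, with 1.58, 1.19 and 1.14 CPM at haploid mitosis and 407, 377 and 341 CPM at haploid meiosis. BcaB04g19726 on B04 was the second most abundant at tetraploid meiosis per length, at 793 ± 10.2 FPKM (SD, n = 3), and kept 0.509% in the haploid and 0.118% in the tetraploid. Its mitosis ratio was only 6.78 (counting interval 3.996 to 12.3).

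**Figure D3:**
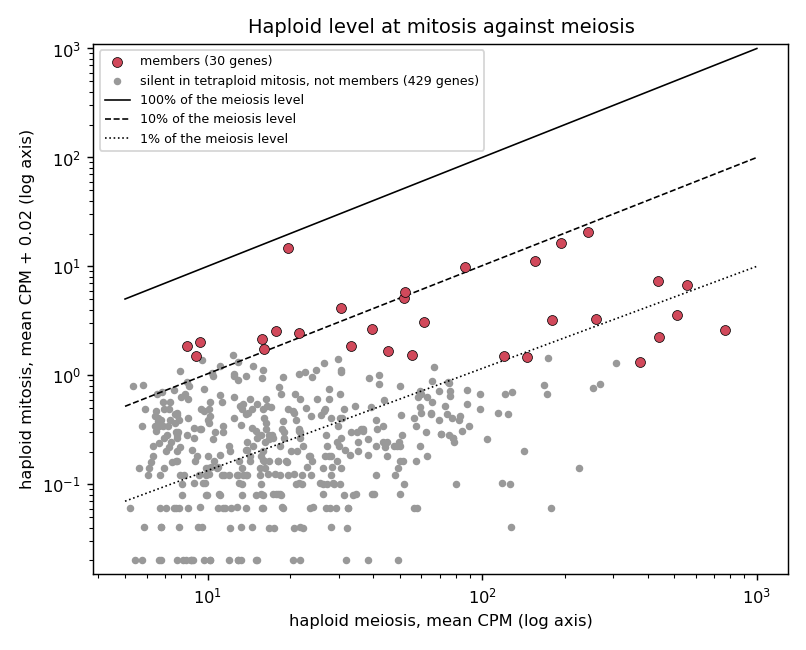
Mean CPM at haploid mitosis, plus 0.02, against mean CPM at haploid meiosis, both on log axes, for the 30 genes and for 429 other genes silent at tetraploid mitosis; the lines mark 100%, 10% and 1% of the meiosis level. BcaC01g04921 at 75.1%, lies just under the 100% line, and genes with the highest meiosis levels lie near or under the 1% line.

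Genes that were abundant at meiosis were more often among the 30. Of the 459 genes silent at tetraploid mitosis, 9 of the 25 with at least 100 CPM at tetraploid meiosis were among them (36.0%), 13 of 193 with 20 to 100 CPM (6.74%) and 8 of 241 under 20 CPM (3.32%). A fixed minimum of 1 CPM at mitosis is more easily met by an abundant gene. Among the genes with at least 100 CPM at tetraploid meiosis, the 9 kept a median of 1.003% at haploid mitosis and the 16 others 0.376%, a difference that the rule itself favours.

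The rule did not use the difference between haploid and tetraploid anthers at meiosis, since both forms had to pass the same minimum there. Its mitosis limits did ask for more in the haploid, so the difference at meiosis may not be independent of how the genes were chosen. The difference at meiosis was tested with edgeR's quasi-likelihood test across all 51860 genes that passed the filter on low counts. Benjamini-Hochberg adjustment was used, and calls were made below an adjusted p of 0.05. All 30 genes passed the filter. Of these, 19 were called higher in the haploid at meiosis (63.3%), where 19.5% of all tested genes and 22.0% of the 21026 meiosis genes were. Only 3 were called lower (10.0%), against 18.8% of all tested genes and 30.1% of the meiosis genes, and 8 were not called. The 429 genes that were silent at tetraploid mitosis but not among the 30 were called higher in 11.7% and lower in 28.9% of cases. The haploid mitosis level alone set the 429 apart from the 30, so the contrast between these groups may follow from that choice.

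The median log2 fold change at meiosis, haploid minus tetraploid, was 0.60 over the 30 genes, with quartiles of -0.08 and 0.95. It was 0.00 over all tested genes, -0.05 over the meiosis genes and -0.16 over the 429. Over all 459 genes silent at tetraploid mitosis, chosen without the haploid mitosis libraries, it was -0.14. Without a model, 17 of the 30 had all 3 haploid libraries above all 3 tetraploid libraries at meiosis, where 23.2% of all tested genes and 25.5% of the meiosis genes did, and 6 had them all below (23.8% of all tested genes and 35.6% of the meiosis genes). A difference of at least 2-fold in either direction was seen in 7 of the 30 genes (23.3%), in the haploid's favour each time. In either direction it was seen in 7287 of all tested genes (14.1%) and in 503 of the meiosis genes (2.39%). The part of these background counts in the haploid's favour was not computed.

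**Figure D4:**
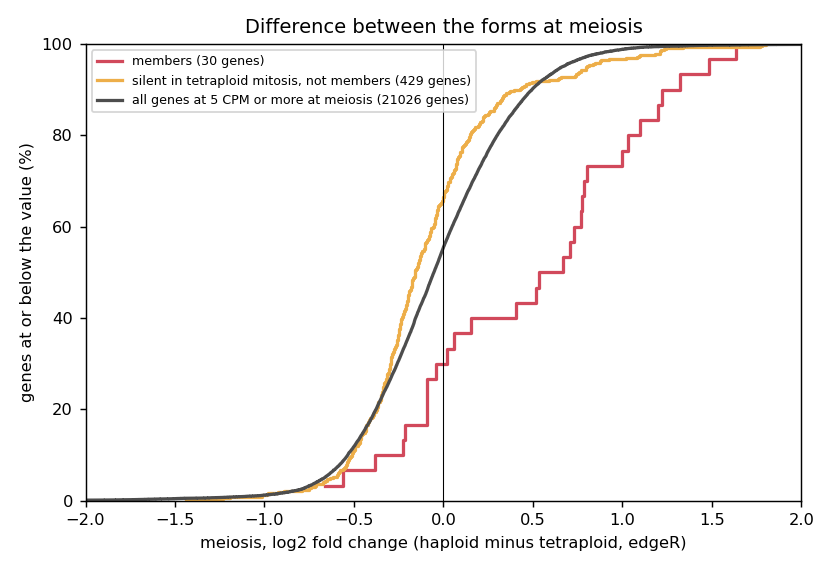
Cumulative share of genes (vertical axis, in percent) at or below a given log2 fold change at meiosis, haploid minus tetraploid, from edgeR (horizontal axis). The curve of the 30 genes, with a median of 0.60, lies to the right of the curves of the 429 other genes silent at tetraploid mitosis (median -0.16) and of all 21026 genes with at least 5 CPM at meiosis (median -0.05).

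At each level of expression, a larger share of the 30 genes than of the meiosis genes was called higher in the haploid. The levels were cut on tetraploid meiosis CPM, which is 1 side of that difference. Of genes with at least 100 CPM at tetraploid meiosis, 8 of the 9 among the 30 (88.9%) were called higher in the haploid. At this level 5 of 16 other genes silent at tetraploid mitosis were too (31.25%), against 16.8% of the meiosis genes. From 20 to 100 CPM it was 7 of 13 (53.8%), against 11 of 180 others (6.11%) and 19.6% of meiosis genes. Under 20 CPM it was 4 of 8 (50%), against 34 of 233 (14.6%) and 24.6%. Across the 30 genes, the log2 ratio of the forms at meiosis and the haploid level at mitosis, which share no library, had a Spearman's rho of 0.681, which is also a description within the limits set by the rule, since the haploid mitosis level chose the genes. Whether asking for a minimum at haploid mitosis also picks genes that are higher in the haploid at meiosis was not tested.

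The 19 genes called higher at meiosis had haploid mitosis means from 1.30 to 20.7 CPM (median 3.60), the 3 called lower from 1.53 to 1.99 CPM (median 1.84), and the 8 not called from 1.46 to 14.7 CPM (median 1.99). Between the subgenomes, 9 of the 19 were on B and 10 on C, and all 3 called lower were on B. The whole chosen group had 17 genes on B and 13 on C. The shares of all tested B and C genes called higher or lower were not computed. A difference between the subgenomes was therefore not tested, and the genes called lower are only 3.

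BcaC09g51164 on C09 had the largest difference at meiosis, with 38.8, 39.95 and 40.6 CPM in haploid libraries against 12.3, 13.4 and 12.9 CPM in tetraploid libraries. The groups were far apart, at a log2 fold change of 1.63 (SE 0.11, adjusted p = 4.18e-14, edgeR). At mitosis it had 2.97, 2.497 and 2.47 CPM in the haploid, and in the tetraploid 2 reads in replicate 3 and 0 in the others. BcaC01g06148 followed, at 196, 194 and 193 CPM in haploid against 66.1, 69.8 and 73.5 CPM in tetraploid libraries at meiosis (log2 fold change 1.48, SE 0.06, adjusted p = 3.51e-20, edgeR). This gene, which was second by reads at haploid mitosis, was thus already 2.80-fold higher in the haploid at meiosis.

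The decreases at meiosis were small. BcaB04g21140 on B04 had 10.1, 8.998 and 9.14 CPM in haploid against 13.7, 16.9 and 14.3 CPM in tetraploid libraries at meiosis (log2 fold change -0.66, SE 0.17, adjusted p = 0.00264, edgeR). Its call was lost with FPKM and limma-trend at a pseudocount of 0.1, where the log2 fold change was -0.65. At mitosis its haploid libraries spread the most of the 30 genes, at 1.76, 3.12 and 1.08 CPM, all above the 0.184, 0.126 and 0.184 CPM of the tetraploid libraries. BcaB08g34833, the gene with the second highest part kept, averaged 8.38 ± 0.863 CPM in haploid and 12.4 ± 0.927 CPM in tetraploid anthers at meiosis (log2 fold change -0.56, SE 0.16, adjusted p = 0.00581, edgeR). BcaC01g04921, the gene that kept the most, showed no call, with a log2 fold change of -0.09 (SE 0.11, adjusted p = 0.546, edgeR).

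By position in the genome, 17 of the 30 genes were on B and 13 on C chromosomes (56.7% on B), where 52.7% of the 459 genes silent at tetraploid mitosis and 45.0% of the 21026 meiosis genes were on B. They came from 13 of the 16 chromosomes that the rule allowed, with 5 on B08 and 4 on C01, and none on B01, B02 or C06, which held 33, 34 and 24 of the 459 silent genes. On B the part of the haploid meiosis level kept had a median of 8.53% (17 genes, 0.347% to 21.9%) and on C of 6.65% (13 genes, 0.340% to 75.1%). The ID numbers of the genes were mostly far apart. The exceptions, named after their values were seen, were BcaB06g28558 and BcaB06g28569, 11 numbers apart, and BcaB08g34833 and BcaB08g34851, 18 numbers apart. The B06 genes kept 3.67% and 2.76% and the B08 genes 21.9% and 16.5% of their haploid meiosis level. How reads of near-identical copies on the B and C genomes were counted is not stated in these sources, so a level may include reads of a related copy.

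The deposited FPKM values, made from the same libraries, gave the same order of the forms. All 30 genes had every haploid mitosis FPKM above every tetraploid mitosis FPKM, and 27.7% of the meiosis genes did the same. For the 30 genes the CPM limits of the rule, set on the same libraries, all but fix this order. In at least 1 tetraploid mitosis library, 5 of the 30 exceeded 0.5 FPKM, and the highest tetraploid mitosis mean was 1.30 FPKM, for BcaB04g19726, which stood at 6.21 FPKM in the haploid.

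The mitosis limits of the rule cut through a continuous range. At the tetraploid mitosis limit, the nearest gene inside had 0.492 CPM in its highest library and the nearest outside 0.503 CPM, and 29 genes that met the other clauses had their highest tetraploid library between 0.5 and 1 CPM. At the haploid mitosis limit, the lowest library stood at 1.02 CPM for the nearest gene inside and 0.999 CPM for the nearest outside. At the meiosis limit these values were further apart, at 7.46 and 4.65 CPM.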

How the data were processed

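RNA-seq of 12 anther libraries was analysed. The deposited count table holds whole-number counts per gene, not normalised, as its values show. The deposited FPKM table holds FPKM for the same genes, with its tool not given in the sources used. The submitters' processing notes list, without roles, featureCounts 2.0.1, TopHat2, Bowtie2 2.2.3 and HISAT2 2.1.0. For the build, annotation and strand setting, nothing is given in the sources used here.

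CPM were computed on column totals. Ratios of mitosis levels carry exact (Clopper-Pearson) 95% binomial intervals of the summed counts. The meiosis contrast was fitted in R 4.3.3 with edgeR 4.0.16: TMM, the default filter on low counts, a mean per group over 12 libraries, and a two-sided quasi-likelihood test, on 51860 genes. Standard errors are the log2 fold change over the square root of F. Alternatives used DESeq2 1.42.0 and limma 3.58.1 on log2(FPKM + 1) and log2(FPKM + 0.1). The count test was run on simulated data with far fewer changed genes than were called here, as a check of the code only. The genes and lists were chosen with earlier results of these data known. IDs named are the 2 with the most CPM at haploid mitosis, the 2 at each end of the part kept, the 2 with the most FPKM at tetraploid meiosis, and the 2 called meiosis differences at each end whose libraries did not overlap. Marker and pathway lists could not be applied, because the files pair no IDs with names.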

Additional observations from a re-analysis of the deposited data

How the results depend on the processing

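The number of genes that met the rule depended on its limits. It was 15 with tetraploid mitosis at 0.25 CPM or less, 59 at 1 CPM or less, 18 with haploid mitosis above 2 CPM and 74 above 0.5 CPM, and 42 to 46 without each replicate number. It was 34 on TMM-scaled CPM, 35 on FPKM and 27 with a meiosis minimum of 10 CPM. With the forms exchanged the count was 36 with the silent form at 1 CPM or less, 0 with the other form above 2 CPM, 16 above 0.5 CPM, 9 on FPKM, and 7 to 12 without each replicate number. It was below the first count under each of these 10 settings. The median part kept was 7.96% on TMM-scaled CPM and 6.58% to 7.14% without each replicate number.

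Of the 30 genes, 13 to 19 were called higher at meiosis under the 14 alternatives (17 to 19 without each meiosis library) and 1 to 4 lower (2 to 3 without each meiosis library). The 1 came from FPKM with a pseudocount of 0.1, where 14 of the 22 calls were kept. The cause was not tested. No called gene changed direction under these alternatives. Over all tested genes, 10096 were called higher at first (19.5%) and 8835 to 10192 under the alternatives. For genes called lower it was 9774 at first (18.8%) and 8523 to 9929. With FPKM and a pseudocount of 0.1, 9486 of all tested genes were called higher and 8818 lower. Libraries with the same replicate number did not deviate together at meiosis (r of -0.00804 to 0.00173 over 3 pairs), and with the replicate block 19 were called higher and 3 lower, all 22 calls being kept. Depth limits the tetraploid mitosis values, which rest on 1 to 18 reads per gene.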

Other observations

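The rule left out C03 and genes with no chromosome in their ID. Of 24 C03 genes that met the meiosis and tetraploid mitosis clauses, 5 (20.8%) were above 1 CPM in every haploid mitosis library, and of 38 unplaced genes 6 (15.8%) were, where 30 of 459 (6.54%) of the other placed genes were. These shares were not tested against each other.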
